A study of Caenorhabditis elegans with 6 samples.

Results

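The genes described here are the X-linked genes of Caenorhabditis elegans whose RNA was detected in dissected distal gonad arms. They were chosen by their measured counts: a gene annotated to chromosome X was taken when its raw counts summed over the 6 libraries reached 60, and vitellogenin (vit-), cpr-, hil-, his-, rpl- and rps- genes, mup-2, unc-27 and ceh-18 were left out. Of 5689 X-linked gene names, 2951 had at least 1 count and 738 reached the minimum. Leaving out 14 symbols gave 724 genes, among 23478 names with a count in the whole series. They comprised 683 protein-coding genes, 32 pseudogenes, 7 ncRNAs, 1 lincRNA and 1 snoRNA. A set of 6758 autosomal genes chosen by the same rule served for comparison.

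RNA was sequenced from oogenic gonad arms of day 1 adults grown at 24 °C, cut at the bend where germ cells are in late pachytene, with several arms pooled per library and 2 libraries in each of 3 groups. “Red-head” germlines came from F1 mosaic worms of HBR1281 hermaphrodites (oxTi411, an eft-3p::TdTomato::H2B transgene, with ddIs32, a yfp::gpr-1 transgene) mated to HBR1280 males, and they inherited chromosomes of the sperm only. Offspring germlines were those of F2 worms, the next generation after the “red-head” hermaphrodites. Control germlines came from HBR1280 hermaphrodites and inherited chromosomes from both parents. All 3 groups carried oxTi75, an eft-3p::GFP::H2B transgene that also holds unc-18(+), so that reads of the X-linked gene unc-18 could come from the transgene as well as from the gene. GPR-1 overexpression in the oocyte sends the sperm and oocyte genomes to different cells of the early embryo, and the soma of “red-head” worms is therefore a mosaic of both.

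In worms of this species an XX animal is a hermaphrodite, and its X chromosomes are treated differently in soma and germline. In somatic cells a dosage compensation complex lowers X output, whereas in the germline, where that complex does not act in this way, most of the X is kept repressed by repressive histone methylation. The X is poorly transcribed in mitotic and early meiotic germ cells and becomes more active during oogenesis, and genes needed in every germ cell are rare on it.

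Counts on genes numbered 11310273 and 2721055 in the “red-head” libraries, 7150847 and 3673141 in the offspring libraries, and 7469633 and 4980329 in the control libraries. Every one of the 18 germline markers had counts in every library. The summed level of 14 intestine markers was 3240 and 6219 CPM (counts scaled to library size by edgeR's TMM method) in “red-head”, 1352 and 207 CPM in offspring and 513 and 356 CPM in control libraries. Muscle markers summed to 145 and 311 CPM in the “red-head” pair, 336 and 133 CPM in offspring and 234 and 170 CPM in control libraries, and sperm markers to at most 27.5 CPM in any library. “Red-head” replicate 2 and offspring replicate 2 share a tag in their library names, as do offspring replicate 1 and control replicate 1, and what a tag marks is not stated in the sources used here. In “red-head” replicate 1 the X-linked genes stood above those of the 5 other libraries, and the X shifts and median fold changes of “red-head” germlines are also given without it. Nothing in the labels says whether the replicates came from separate cultures, so that p-values measure only the spread between these libraries.

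The X chromosome contributed little of the RNA of these gonads. X-linked genes took 1.58% and 0.997% of the counts on genes in the “red-head” libraries, 1.2% and 0.915% in the offspring libraries and 1.17% and 1.33% in the control libraries. Each autosome took between 11.4% and 22.9%, by the same rule. With all X-linked gene names counted, also those left out, the X took 1.88% and 1.46% in the “red-head” libraries. It then took 1.32% and 0.964% in the offspring and 1.26% and 1.42% in the control libraries. The order of the libraries thus depended on the genes left out. The X holds 13.7% of the 19081 protein-coding genes of the 6 chromosomes, and of the 4650 that exceeded 15 RPKM in both control libraries, a level the study used to call a gene expressed, it held 1.14%. RPKM are CPM per 1000 nucleotides of the longest annotated transcript.

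Fewer X-linked genes reached the count minimum than genes of most autosomes, and those that did were low. Of 2611 annotated X-linked protein-coding genes, 683 (26.2%) reached 60 counts, against 54.9%, 38.5%, 57%, 37.5% and 21.8% on chromosomes I to V. Chromosome V, which carries most of the chemoreceptor genes, was thus the one autosome below the X. Above 15 RPKM the X was lowest of all, with 53 genes or 2.03% of those annotated, against 14.2% on chromosome V and 43.4% on chromosome III. As counts chose the genes, these shares are a description and were not tested.

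**Figure D1:**
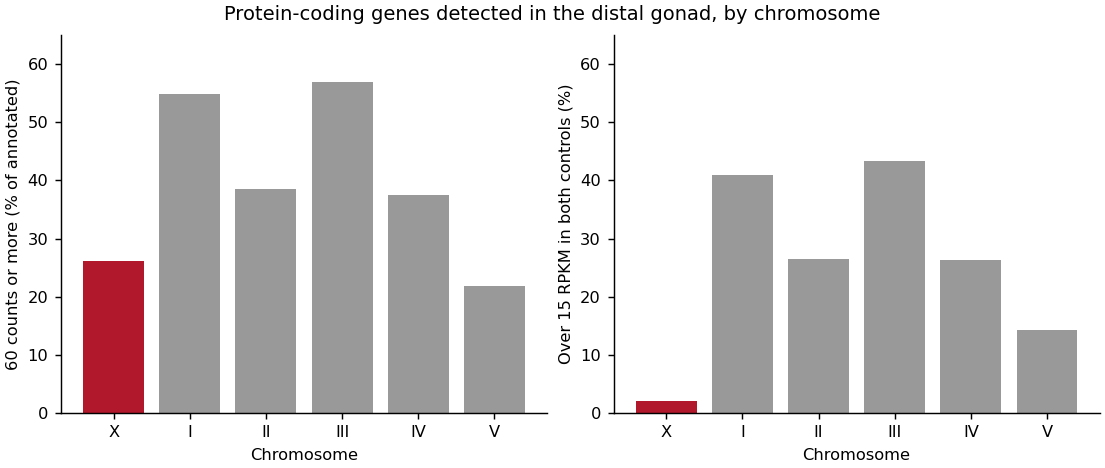
Percent of annotated protein-coding genes of each chromosome that reached 60 counts over the 6 libraries (left) and that exceeded 15 RPKM in both control libraries (right), as bars that start at 0. The X (red) stood at 26.2% and 2.03%, and chromosome V at 21.8% and 14.2%.

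Among the genes that met the rule, the median control level was 3.83 RPKM on the X (quartiles 2.06 and 7.19) and 41.7 RPKM on the autosomes (quartiles 10.8 and 72.6), a ratio of 10.9 between the medians. The upper quartile of the X was therefore below the lower quartile of the autosomes. On the log2(RPKM + 1) scale the X median minus the autosomal median was -2.66 and -3.41 in the “red-head” libraries, -3.22 and -3.45 in the offspring libraries and -3.26 and -3.0 in the control libraries. The difference was thus smallest in “red-head” replicate 1 and largest in offspring replicate 2. X-linked genes in this set were longer, with a median of 1904 nucleotides against 1556, so that the same count gave a lower RPKM.

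Most X-linked protein-coding genes fell into the low classes. A control mean under 1 RPKM was found for 75 of them (11%), 1 to 5 RPKM for 342 (50.1%) and 5 to 15 RPKM for 203 (29.7%). Only 43 (6.30%) had 15 to 50 RPKM and 20 (2.93%) had 50 RPKM or more. Of the autosomal genes, 41.7% were in the highest class and 4% in the lowest.

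**Figure D2:**
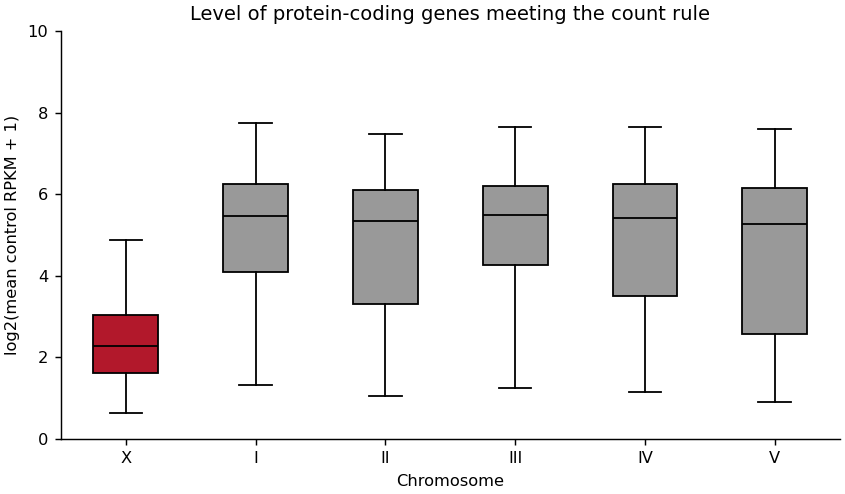
Level of the protein-coding genes that reached 60 counts, as log2 of the mean control RPKM plus 1, for each chromosome. Boxes span the quartiles with the median as a line, and whiskers reach the 5th and 95th percentiles over genes. The X (red) lies below the 5 autosomes.

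Low X-linked genes were spread along the whole chromosome. When the X was cut by gene order into left, middle and right parts with about the same number of protein-coding genes, 28.8%, 22.4% and 27.3% of the genes met the rule. Their median control levels were 3.75, 3.67 and 4.09 RPKM, and 17, 18 and 18 genes exceeded 15 RPKM in both controls. The middle part thus had the lowest share of genes that met the rule, while the right part had the highest median.

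A few genes carried a large part of the X-linked RNA. Of the counts of the 724 genes, the 10 with the most control counts held 19.5% and 26.5% in “red-head” libraries. They held 24.6% and 27.6% in offspring and 26.4% and 24.5% in control libraries, and the top 50 held 44% to 50.4% over all 6. Examples are described next by their roles, from the 25 protein-coding genes with the highest control RPKM.

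Transporters and enzymes were among them. The gene mrp-4 encodes an ABC transporter of the multidrug resistance family and had the most counts of the 724 genes. It had 120 and 105 RPKM in “red-head”, 100 and 106 RPKM in offspring and 105 and 120 RPKM in control libraries. All groups overlapped. C39D10.7, for which no role is given here, had 207 and 99.4 RPKM in “red-head” and 126 and 106 RPKM in offspring libraries. Its control values were 165 and 99.1 RPKM, and “red-head” replicate 1 was the highest library. The enzymes of this set include tbh-1 (tyramine beta-hydroxylase, which is known from gonadal sheath cells as well as neurons), got-2.2 (aspartate aminotransferase), acly-1 (ATP citrate lyase) and pccb-1 (propionyl-CoA carboxylase). The level of tbh-1 was 61.6 and 25.4 RPKM in “red-head”, 61.7 and 44.3 RPKM in offspring and 62.1 and 38.6 RPKM in control libraries, so that every group held a higher replicate 1 and a lower replicate 2. For got-2.2 the values were 92.6 and 43.9, 46.5 and 32.3, and 46.7 and 58.9 RPKM in the same order of groups, and “red-head” replicate 1 alone stood out.

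Genes of protein folding and secretion formed a second group. The Hsp70 chaperone of the endoplasmic reticulum, hsp-3, had 89.1 and 54.6 RPKM in “red-head”, 61 and 65.1 RPKM in offspring and 65.6 and 83.6 RPKM in control libraries. The protein disulfide isomerase gene pdi-2 had 93.3 and 46.8, 66.6 and 54.7, and 74.3 and 86.3 RPKM in the same order. In both genes “red-head” replicate 1 was the highest library and “red-head” replicate 2 the lowest. Of the 8 X-linked genes in a list of chaperones, 7 met the rule, with a median of 6.22 RPKM against 80.6 RPKM for the 62 autosomal ones.

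Germ granule components were also present. The gene meg-1, whose product acts in the P granules of the germ lineage, had 78.2 and 44.9 RPKM in “red-head”, 51.6 and 42.2 RPKM in offspring and 61 and 68.9 RPKM in control libraries. Its relatives meg-2, meg-3 and meg-4 are X-linked as well and were named after their values were seen. Their control means were 10.3, 24.3 and 16.2 RPKM. For meg-4 the values were 20 and 13 RPKM in “red-head”, 9 and 9.42 RPKM in offspring and 14.1 and 18.2 RPKM in control libraries. The offspring libraries were below both others without overlap with the controls. Both offspring libraries lay below both controls for 32.2% of tested X-linked and 16.6% of all tested genes. The log2 fold change of meg-4 against control was -0.81 ± 0.24 (SE, edgeR, adjusted p = 0.999) and did not pass the threshold. Library values of meg-2 and meg-3 are not given here.

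The gene unc-18 encodes a syntaxin-binding protein of synaptic vesicle release, and the transgene of all 3 groups carries a copy. It had 74.5 and 67.6 RPKM in “red-head”, 93.3 and 80.7 RPKM in offspring and 87 and 62.4 RPKM in control libraries. Both offspring libraries lay above both “red-head” libraries, and the controls overlapped with each of these groups. Counts from the chromosomal gene and from the transgene cannot be told apart.

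Copies of abundant autosomal genes also appeared high on the X and are uncertain, because near-identical copies can exchange reads. The elongation factor gene eef-1A.2 had 18.3 and 25.9 RPKM in “red-head”, 40.4 and 26.2 RPKM in offspring and 33.3 and 24.9 RPKM in control libraries. Its counts were 0.337% of those of eef-1A.1 on chromosome III, which encodes the same protein. The actin gene act-4 had 22.3 and 63.2 RPKM in “red-head”, 76.1 and 53.2 RPKM in offspring and 62.8 and 52.2 RPKM in control libraries, whereas its autosomal relative act-2 had at least 1023 RPKM in every library. In both X-linked copies “red-head” replicate 1 was the lowest library.

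**Figure D3:**
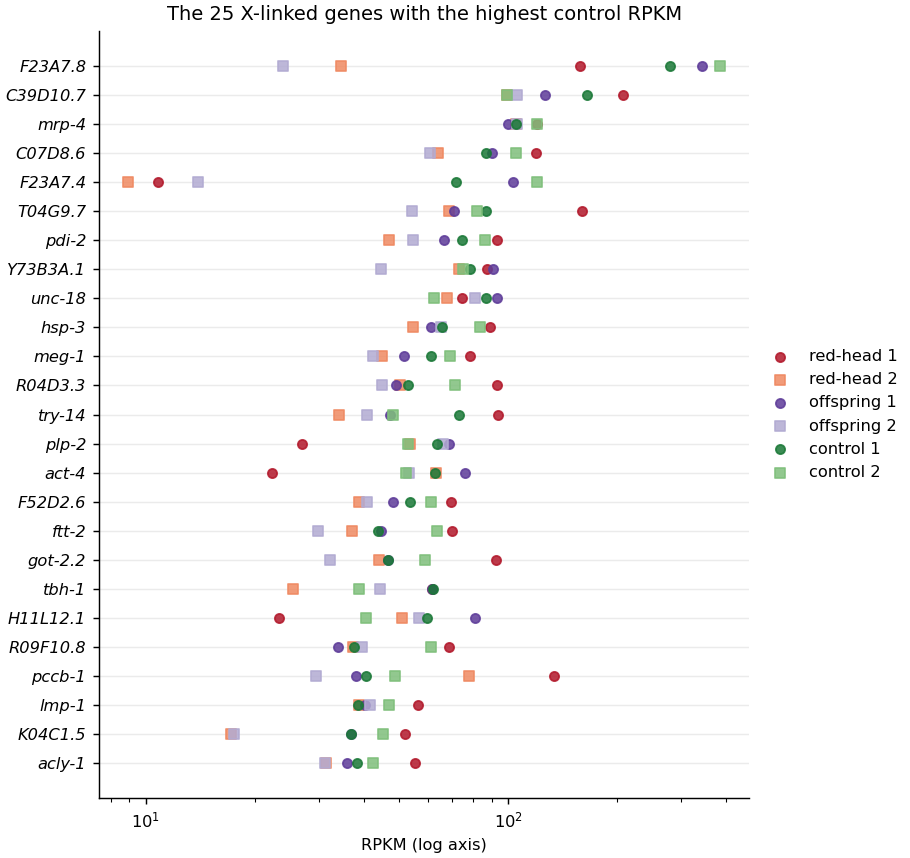
RPKM (log axis) of the 25 X-linked protein-coding genes with the highest control mean, 1 point per library, ordered from the highest control mean at the top. The choice by control mean favours values below the controls. “Red-head” replicate 1 (dark red circles) was above both controls for 18 of the 25 genes (68.6% of all 724 X-linked and 34.1% of autosomal genes were) and “red-head” replicate 2 (orange squares) was below both for 18 (62.2% and 40.3%).

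Against both controls, “red-head” replicate 1 was higher for 18 and lower for 5 of these 25 genes, and “red-head” replicate 2 was higher for 2 and lower for 18. Offspring replicate 1 was higher for 5 and lower for 12, and offspring replicate 2 was higher for 1 and lower for 16. The 25 genes were chosen by their control level, which favours values below the controls. Over all 724 X-linked genes the shares above and below both controls were 68.6% and 9.53% in “red-head” replicate 1, 17% and 62.2% in “red-head” replicate 2, 27.5% and 44.1% in offspring replicate 1 and 9.25% and 65.1% in offspring replicate 2. Over the autosomal genes they lay between 33.4% and 40.3% in each direction in these 4 libraries. The 5 genes that were lower in “red-head” replicate 1 were F23A7.8, F23A7.4, plp-2, act-4 and H11L12.1. The gene pccb-1 was above both controls in both “red-head” libraries, and act-4 was the other gene above both controls in replicate 2.

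Among X-linked RNAs that are not protein-coding, a neighbourhood at one end of the chromosome stood out. Names starting with Y73B3A or Y73B3B numbered 31 on the X, lay among the first 18 of 2627 protein-coding genes in gene order, and gave 15 of the 724 genes, of which 9 were pseudogenes, 5 protein-coding and 1 an ncRNA. Of the counts of the 724 genes they held 4.92% and 12% in “red-head” and 11% and 10.9% in offspring libraries. In control libraries they held 11% and 11.4%. The pseudogene Y73B3A.18 had 77.5 and 575 CPM in the “red-head” pair, 505 and 620 CPM in offspring and 442 and 487 CPM in control libraries. The ncRNA Y73B3A.23 had 292 and 240 CPM in the “red-head” pair, 374 and 142 CPM in offspring and 446 and 589 CPM in control libraries. The 5 X-linked genes that are not protein-coding and had the highest control level were these 2 and the pseudogenes T08D2.3, AC8.1 and Y73B3A.17. All 5 were below both controls in “red-head” replicate 1, where 9.53% of all X-linked and 39.8% of autosomal genes were. Their choice by control level favours values below the controls, and these shares are over genes not chosen in this way. Pseudogenes can share reads with their parent genes, so these values are uncertain.

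Among genes with a control mean of at least 15 RPKM, the widest ranges of log2(CPM + 1) were those of F23A7.8, K09E9.5, K09C4.3, F23A7.4 and ZK380.t2. F23A7.8 is annotated with 204 nucleotides and had 158 and 34.5 RPKM in “red-head”, 342 and 23.9 RPKM in offspring and 279 and 383 RPKM in control libraries. The snoRNA K09E9.5, with 131 nucleotides, had 35.4 and 14.1 RPKM, 241 and 11 RPKM, and 170 and 100 RPKM in the same order. In both, “red-head” replicate 2 and offspring replicate 2, which share a name tag, were the lowest libraries. Over the 9 X-linked genes of at most 300 nucleotides the median log2 deviation from the mean of the 6 libraries, less that of autosomal genes, was -0.10 and -1.33 in “red-head”, 1.13 and -1.09 in offspring and 0.51 and 0.44 in control libraries. The 9 short genes thus spread over libraries more widely than the X-linked genes as a whole.

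At the low end, the count minimum lay within a continuum. The 3 genes just inside it were B0198.3, C05E11.3 and syg-2, each with 60 counts, and the 3 just outside were C44C10.5, dop-4 and F45B8.5, each with 59. The level of syg-2, which encodes a synaptic adhesion protein, was 0.311 and 0.648 RPKM in “red-head”, 0.506 and 0.287 RPKM in offspring and 0.402 and 0.391 RPKM in control libraries. The dopamine receptor gene dop-4, just outside, had 1.42 and 1.27, 0.824 and 0.328, and 0.536 and 0.446 RPKM in the same order. Of the 724 genes, 7 had no count in “red-head” replicate 2, 12 had none in offspring replicate 2 and 1 had none in control replicate 2, while all had counts in the 3 deepest libraries.

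Genes of the X signal and of dosage compensation were present at low levels. This list held 6 X-linked genes, of which 5 met the rule, and 9 autosomal ones, of which 8 did. Their median control levels were 4.58 RPKM on the X and 61.3 RPKM on the autosomes. The gene sdc-2, which brings the dosage compensation complex to the X in XX animals, had 2.95 and 1.60 RPKM in “red-head”, 2.09 and 2.20 RPKM in offspring and 1.87 and 2.13 RPKM in control libraries. The zinc finger gene sdc-1 had 10.2 and 5.67, 4.83 and 4.99, and 6.15 and 6.49 RPKM in the same order. The X signal elements, whose dose tells the embryo how many X chromosomes it has, were ceh-39 (15.3 and 9.09, 7.79 and 7.35, and 7.60 and 11.3 RPKM), sex-1 (6.10 and 1.37, 2.74 and 3.63, and 3.81 and 5.35 RPKM) and fox-1 (2.71 and 0.786, 2.02 and 1.46, and 1.88 and 1.99 RPKM). All 5 were highest in “red-head” replicate 1, and the lowest library was “red-head” replicate 2 for sdc-2, sex-1 and fox-1 and an offspring library for sdc-1 and ceh-39. None of the 5 was called in a contrast.

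Chromatin regulators encoded on the X were likewise low. Of 12 X-linked genes listed, 9 met the rule, with a median of 4.38 RPKM, against 63.5 RPKM for the 7 autosomal ones. The synMuv gene lin-15B had 11.5 and 7.35 RPKM in “red-head”, 12 and 8.20 RPKM in offspring and 11 and 16.2 RPKM in control libraries. The gene unc-84, which encodes a SUN-domain protein of the nuclear envelope, had 17.5 and 10.4, 9.06 and 9.86, and 10.5 and 14.5 RPKM in the same order. The histone demethylase genes utx-1 and jmjd-3.1 had control values of 3.57 and 5.20 RPKM and of 0.619 and 0.952 RPKM. The remaining genes, hda-4, dpy-22, hpl-1, chd-3 and lin-15A, had control values between 2.34 and 11 RPKM.

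Several other gene groups held few X-linked genes, and those that met the rule were low. Except for germline development, these groups were taken by symbol prefix, such as unc- for neuronal genes. They thus also hold genes of other roles, among them unc-84 in the neuronal group. The proteasome group also took in ubiquitin genes. Of the genes listed for germline development, 33 of 33 autosomal ones met the rule and 3 of 4 X-linked ones. These 3 were the presenilin gene sel-12, the hemicentin gene him-4 and lin-15B, with a median of 3.64 RPKM. This list was picked by name and left out meg-1 (61 and 68.9 RPKM in control libraries) and its relatives. Its X-linked count and level thus depend on that choice. The nuclear pore list held 0 X-linked genes against 42 autosomal ones, and the RNA processing list held 2 against 82. Translation (3 of 3 X-linked genes met the rule, 67 of 68 autosomal), mitochondria (3 of 3 and 117 of 122), cell cycle (2 of 2 and 92 of 97), traffic and cytoskeleton (17 of 24 and 93 of 110) and proteasome (1 of 7 and 72 of 83) had X-linked medians of 9.66, 7.99, 5.45, 4.98 and 4.66 RPKM, against autosomal medians of 146, 69.9, 99.5, 64.8 and 173 RPKM. Of 117 X-linked neuronal genes 11 met the rule (9.40%, against 24% of autosomal ones), and of 43 cuticle genes 8 did (18.6% against 25.2%). Of 62 X-linked transcription factors 17 met it (27.4% against 23.7%), and of 28 serpentine receptors 0 did (against 2.1%). In these groups the X and autosomal medians were closer, at 3.23 and 4.97 RPKM for neuronal genes, 4.94 and 3.33 RPKM for cuticle genes and 2.36 and 3.51 RPKM for transcription factors. In the cuticle group the collagen gene col-19 had 10.9 and 31 RPKM in “red-head”, 41.7 and 8 RPKM in offspring and 15.7 and 7.34 RPKM in control libraries. It is also 1 of the hypodermis markers, whose sum was 33.2 and 90.7, 79.8 and 25, and 41.5 and 26.4 CPM in the same order.

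The X-linked genes moved together between libraries, also between libraries of the same group. For each gene, log2(CPM + 1) was set against its mean over the 6 libraries, and the median over X-linked genes less that over autosomal genes is called the X shift of a library. It was 0.48 and -0.29 in “red-head”, -0.05 and -0.29 in offspring and -0.02 and 0.19 in control libraries. The 2 “red-head” libraries were thus the highest and, with offspring replicate 2, the lowest. Each autosome set against the 4 others stayed between -0.04 and 0.04 in every library. In bulk samples such as these, fewer cells that express X-linked genes and less X-linked RNA per cell cannot be told apart.

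The shift was not confined to weak genes. X-linked genes with a mean of 100 CPM or more (16 genes) had shifts of 0.40 and -0.28 in “red-head”, -0.05 and -0.22 in offspring and 0.10 and 0.12 in control libraries, where autosomal genes of that level (2175 genes) had -0.04 and 0.05, -0.02 and 0.05, and -0.02 and -0.03. X-linked genes of 25 to 100 CPM (68 genes) had 0.50 and -0.28, -0.14 and -0.23, and -0.03 and 0.23. Among genes under 25 CPM, autosomal genes also shifted, with the same sign as the X in both “red-head” libraries, offspring replicate 2 and control replicate 2. Set against autosomal genes of the same level, the 262 X-linked genes under 5 CPM had 0.22 and -0.16 in “red-head”, 0.01 and -0.16 in offspring and -0.02 and 0.09 in control libraries. The 191 genes of 5 to 10 CPM had 0.31 and -0.21, -0.13 and -0.08, and -0.06 and 0.12, and the 187 genes of 10 to 25 CPM had 0.44 and -0.19, -0.12 and -0.19, and -0.06 and 0.09. At matched level the differences of weak genes were thus smaller than the X shift in these 4 libraries. The order of the libraries was also that of their depth in part: the 2 shallowest libraries had the lowest shifts and the deepest the highest. With all 6 libraries thinned at random to 2721055 counts, the shifts were 0.49 and -0.28, -0.06 and -0.27, and -0.02 and 0.20.

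**Figure D4:**
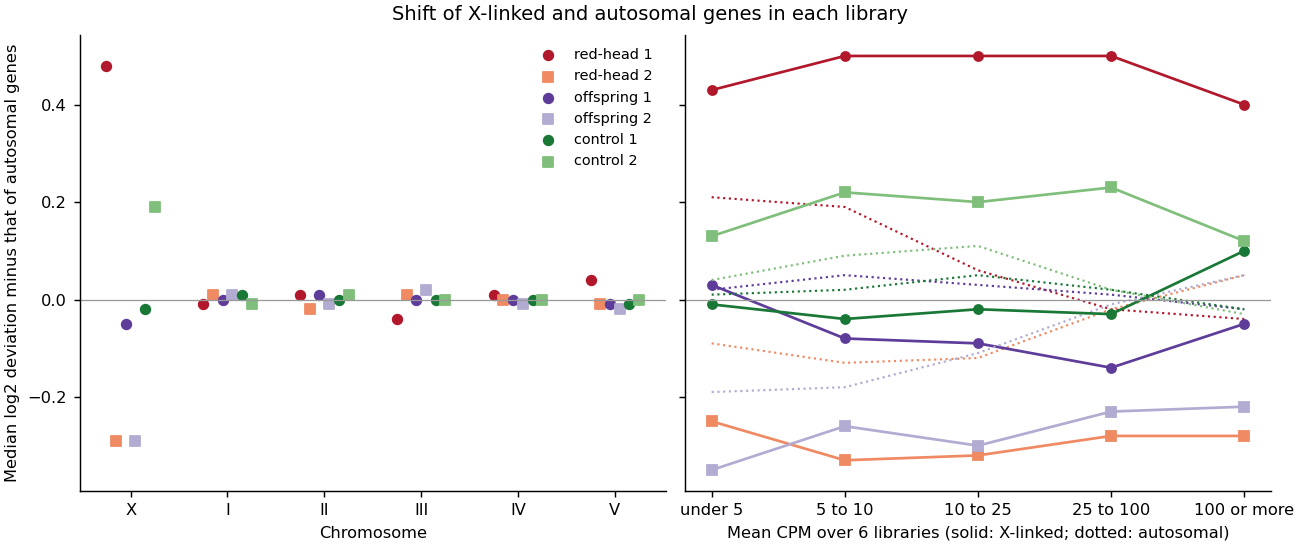
Median log2 deviation from the mean of the 6 libraries, minus that of autosomal genes, for each library. On the left each chromosome is set against the other autosomes, and on the right the X-linked genes (solid) and the autosomal genes (dotted) are split by mean CPM. On the X the libraries spread from -0.29 to 0.48, whereas every autosome lies between -0.04 and 0.04.

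The shift held along the chromosome and on genes that the library itself had not helped to choose. In “red-head” replicate 1 the left, middle and right parts had shifts of 0.49, 0.50 and 0.52, and in offspring replicate 2 they had -0.25, -0.29 and -0.34. When genes were chosen on the other 5 libraries and the remaining one was set against their mean, the X shift was 0.59 and -0.36 in “red-head” (615 and 708 genes), -0.08 and -0.35 in offspring (673 and 709) and -0.02 and 0.23 in control libraries (684 and 698). Of the 615 genes, 87.5% were higher in “red-head” replicate 1, against 45.6% of autosomal genes, and of the 709 genes 19.2% were higher in offspring replicate 2, against 53.2%. By biotype, the 683 protein-coding genes had 0.50 and -0.30, -0.06 and -0.29, and -0.03 and 0.19. The 32 pseudogenes had -0.48 and 0.08, 0.15 and -0.04, and 0.07 and 0.16, so that they ran against the protein-coding genes in “red-head” replicate 1.

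Within groups, the 2 “red-head” libraries differed by a median of 0.76 on the log2 scale over X-linked genes and by -0.03 over autosomal genes, with 85.1% of X-linked genes higher in replicate 1. Between the offspring libraries the X-linked median was 0.24 and between the control libraries -0.22, replicate 1 minus replicate 2, while the autosomal medians were 0.00 and 0.01. Intestine markers, whose sums are given above, also differed between libraries of the same group, and the part of intestine RNA in the X shift was not tested. Without the genes of the somatic lists the shifts of the 6 libraries were 0.49, -0.29, -0.06, -0.29, -0.02 and 0.19. The intestine, gonadal sheath and neuron markers included 0 of the 724 genes, so that this step removed none of them and cannot test their part. The muscle markers included 3 and the hypodermis markers 1, too few to move a median over 724 genes far. For 12 autosomal genes of late oogenesis, a list chosen after these values were seen, the sums were 18630 and 20001 CPM in the “red-head” pair, 16727 and 18444 CPM in offspring and 17558 and 18352 CPM in control libraries. For 8 genes of the synaptonemal complex and meiotic axis, chosen with them, the sums were 916 and 1151, 1141 and 1178, and 1071 and 1061 CPM, with “red-head” replicate 1 the lowest. Whether the stage or place of the cut had a part in the shift was not tested.

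Between groups the “red-head” values spanned those of both other groups. The X shift differed by 0.01 between “red-head” and control germlines (exact two-sided permutation test, p = 1) and by 0.27 between “red-head” and offspring germlines (exact permutation test, p = 1). Without “red-head” replicate 1 these values were -0.38 and -0.12. Between offspring and control germlines the difference was -0.26 (exact permutation test, p = 0.333), with both offspring libraries below both controls. With 2 libraries against 2, 0.333 is the smallest p this test can give. Between offspring replicate 1 and control replicate 1, which share a name tag, the difference was -0.04, and without offspring replicate 1 it was -0.37. Between “red-head” replicate 2 and offspring replicate 2, which also share a tag, it was 0.00.

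Gene by gene, edgeR called 0 of the 717 tested X-linked genes in “red-head” against control germlines (Benjamini-Hochberg adjusted p of 0.05 over 8117 genes, of which 0% were called), and the lowest adjusted p of an X-linked gene was 0.236. At an unadjusted p under 0.05, 20 X-linked genes (2.79%) were higher and 4 (0.558%) lower, against 3.79% and 3.86% of all tested genes. DESeq2 called 6 of 724 X-linked genes, which is 0.829%, against 0.95% of all genes it tested. Values of both “red-head” libraries lay above both controls for 83 X-linked genes (11.6%) and below for 34 (4.74%), against 18.4% and 19.6% of all tested genes. Both X-linked shares were below those of all tested genes. With 1 library left out, edgeR called some X-linked genes in part of the fits. The share of all tested genes called in those fits is not given here, so that these calls cannot be set against a background. The X-linked median log2 fold change was 0.09 against -0.01 for autosomal genes, and it turned to -0.44 without “red-head” replicate 1 and to -0.02 without control replicate 1, and was 0.41 without “red-head” replicate 2 and 0.21 without control replicate 2.

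Among X-linked genes with an unadjusted p under 0.05 and no overlap between the groups, the highest fold changes in “red-head” against control germlines were those of spp-14, K06G5.1, asp-3, spp-5 and asp-4, of which 4 encode saposin-like proteins or aspartyl proteases. The gene spp-14 (saposin-like) had 5.63 and 34.1 CPM in the “red-head” pair, 0.866 and 0 CPM in offspring and 0.402 and 0.391 CPM in control libraries, with a log2 fold change of 5.53 ± 1.19 against control (SE, edgeR, adjusted p = 0.276), and of 3.77 without “red-head” replicate 2. The aspartyl protease gene asp-4 had 14.6 and 18.9 CPM, 4.04 and 0.861 CPM, and 1.61 and 1.56 CPM in the same order, with a log2 fold change of 3.37 ± 0.66 (edgeR, adjusted p = 0.236). The related asp-3 had 21.4 and 57.8, 5.49 and 0.861, and 4.15 and 1.17 CPM, and the saposin-like spp-5 had 4.97 and 19.6, 1.44 and 0.287, and 1.74 and 0 CPM. The last of the 5 was K06G5.1, with 3.64 and 9.63 CPM in the “red-head” pair against 0.402 and 0.391 CPM in control libraries. The rule summed counts over all libraries, and spp-14, K06G5.1, spp-5 and asp-4 reached 60 only with their “red-head” counts. These were 68 and 92 of 171, 44 and 26 of 87, 60 and 53 of 137, and 176 and 51 of 278 counts in that order. Their high “red-head” values thus helped to choose them. The choice of genes without overlap put both “red-head” libraries above both controls in all 5, and replicate 2 was the higher of the pair. Intestine markers were also highest in “red-head” replicate 2, and their part in these values was not tested.

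A different pattern was seen for pccb-1, which encodes a subunit of propionyl-CoA carboxylase, a mitochondrial enzyme of propionate breakdown. It had 247 and 144 CPM in the “red-head” pair, 70.3 and 54.2 CPM in offspring and 74.8 and 90.1 CPM in control libraries. Its log2 fold change was 1.27 ± 0.25 against control and 1.66 ± 0.26 against offspring (SE, edgeR, adjusted p = 0.249 and 0.223), and DESeq2 called both, with adjusted p of 0.000191 and 8.42e-08. The gene of the other subunit, pcca-1, is X-linked too and was chosen after its values were seen. It had 48.5 and 35.1 RPKM in “red-head”, 25.1 and 23.1 RPKM in offspring and 23.3 and 29.5 RPKM in control libraries, and DESeq2 called it against offspring (log2 fold change 0.81 ± 0.23, adjusted p = 0.0295). For both genes the lower “red-head” library, in which X-linked genes as a whole were low, was above all 4 libraries of the other groups. The other calls of DESeq2 against control were F23A7.4, K06G5.1, spp-14, asp-4 and irg-7, an infection response gene that was named after its values were seen. F23A7.4 was the 1 gene among them that was lower, with 2.23 and 1.85 CPM in the “red-head” pair, 21.2 and 2.87 CPM in offspring and 14.9 and 24.8 CPM in control libraries. It has 207 annotated nucleotides, and its 2 offspring values differed widely, as did those of F23A7.8.

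The remaining genes of this kind that were lower in “red-head” than in control germlines were C40H5.6, Y73B3A.13 and Y73B3A.23, namely 2 pseudogenes and the ncRNA described above. C40H5.6 had 1.74 and 2.96 CPM in the “red-head” pair, 5.63 and 3.44 CPM in offspring and 5.76 and 7.23 CPM in control libraries (log2 fold change -1.55 ± 0.53, edgeR, adjusted p = 0.516). Y73B3A.13 had 2.48 and 4.44, 7.65 and 8.32, and 6.03 and 9.97 CPM in the same order. No protein-coding gene other than F23A7.4 was in this set.

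Between offspring and control germlines edgeR called 0 of the 717 X-linked genes, against 0.123% of all tested genes, and DESeq2 called 0 of 724, against 0.191%. The lowest edgeR adjusted p was 0.999, and leaving out 1 library gave a call in some fits, with no share of all genes beside it. At an unadjusted p under 0.05, 0 X-linked genes were higher (0.813% of all tested genes were) and 11 were lower (1.53%, against 0.48%). Both offspring libraries lay below both controls for 231 X-linked genes (32.2%) and above for 32 (4.46%), against 16.6% and 16.5% of all tested genes. The median log2 fold change was -0.23, with -0.10 without control replicate 2, -0.14 without offspring replicate 2, -0.37 without control replicate 1 and -0.43 without offspring replicate 1, and 26.5% of the X-linked genes had a value above 0, against 52.6% of autosomal genes. These counts share the 4 libraries behind the X shift of the 2 groups and are no further evidence for it.

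By the same criteria, the lowest fold changes in offspring against control germlines, none of which passed the adjusted threshold, were those of tts-1, igcm-4, ife-4, tbc-13 and K10B3.5. The long noncoding RNA tts-1 had 0.866 and 0.287 CPM in offspring and 1.88 and 6.84 CPM in control libraries, with a log2 fold change of -2.70 ± 0.82 (SE, edgeR, adjusted p = 0.999), which was -1.54 without control replicate 2 and -3.80 without offspring replicate 1. The cap-binding protein gene ife-4 had 1.01 and 0.574 CPM in offspring and 2.95 and 2.15 CPM in control libraries, and tbc-13, which encodes a protein with a Rab GTPase-activating domain, had 2.74 and 2.30 CPM against 6.03 and 8.01 CPM. K10B3.5 had 3.18 and 4.88 CPM in offspring and 9.38 and 12.1 CPM in control libraries, and igcm-4 had 0.722 and 0.287 CPM against 1.74 and 4.69 CPM. All 5 were weakly expressed. In the same contrast the median log2 fold change was -0.31 for the dosage compensation genes and -0.38 for the chromatin genes, with 0 genes of either at an unadjusted p under 0.05.

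**Figure D5:**
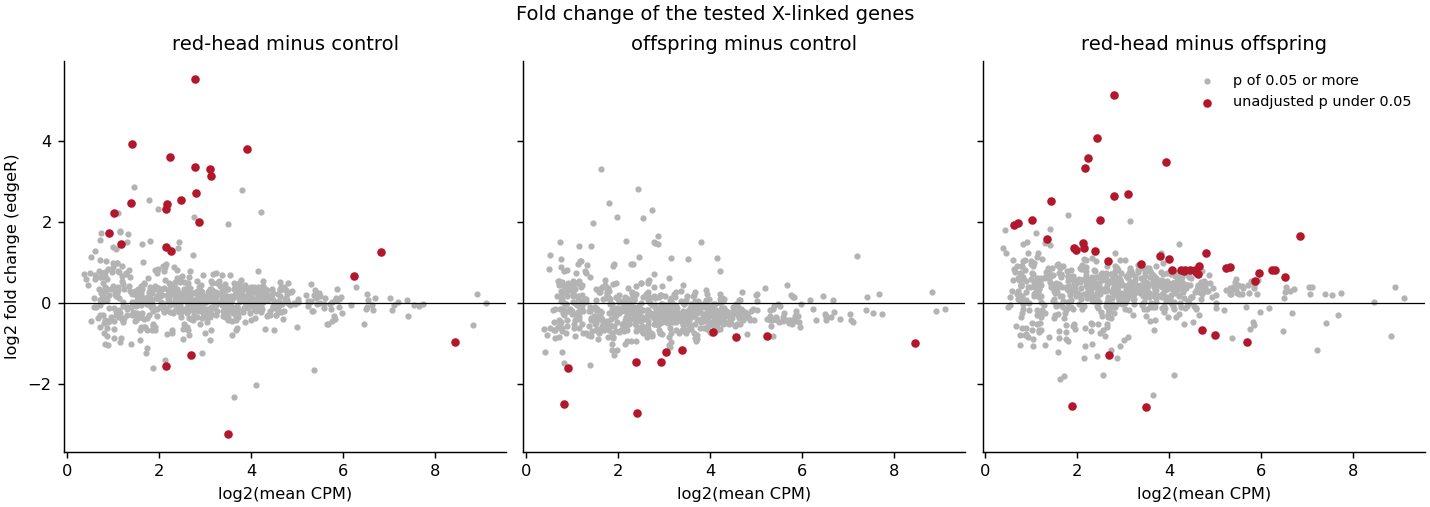
Log2 fold change (edgeR) of the 717 tested X-linked genes against log2 of their mean CPM, for the 3 contrasts. Red points have an unadjusted p under 0.05, and 0 genes passed an adjusted p of 0.05 in any panel. The cloud lies below 0 in the middle panel (median -0.23) and above 0 in the right one (median 0.36, or -0.20 without “red-head” replicate 1).

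Between “red-head” and offspring germlines edgeR called 0 of the 717 X-linked genes, against 0.0123% of all tested genes, with a lowest adjusted p of 0.223. Without “red-head” replicate 2 edgeR called some of them, and no share of all genes is given for that fit. DESeq2 called 7 of 724 (0.967%), against 1.51% of all genes it tested. At an unadjusted p under 0.05, 40 X-linked genes (5.58%) were higher and 6 (0.837%) lower, against 4.16% and 6% of all tested genes. Both “red-head” libraries lay above both offspring libraries for 135 X-linked genes (18.8%) and below for 28 (3.91%), against 17.4% and 20.5%. The share of higher genes was thus near the background and that of lower genes under it. The median log2 fold change was 0.36 against -0.02 for autosomal genes, and 77.1% of the X-linked genes had a value above 0. Without “red-head” replicate 1 the median turned to -0.20 and 35.8% were above 0, without “red-head” replicate 2 it was 0.67 and without offspring replicate 1 it was 0.55.

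By the same criteria, the highest fold changes in “red-head” against offspring germlines were those of spp-14, tts-1, spp-5, asp-3 and rgs-10. Of these, spp-14, tts-1, spp-5 and rgs-10 would not have met the count rule without their “red-head” counts. For tts-1 these were 125 and 32 of 213 counts, and for rgs-10 they were 169 and 18 of 225. The RNA of tts-1 was at 10.3 and 11.9 CPM in the “red-head” pair and 0.866 and 0.287 CPM in offspring libraries (log2 fold change 4.07 ± 0.81, edgeR, adjusted p = 0.278), with the controls between them. The gene rgs-10, a regulator of G protein signalling, had 14 and 6.67 CPM in the “red-head” pair, 1.2 and 0.861 CPM in offspring and 2.55 and 1.56 CPM in control libraries. Its log2 fold change against offspring was 3.33 ± 0.61 (edgeR, adjusted p = 0.264). DESeq2 called tts-1 (DESeq2, adjusted p = 0.00109) and rgs-10 (DESeq2, adjusted p = 0.00456) in this contrast. Its other calls here were spp-14, asp-4, pccb-1, pcca-1 and, as a lower gene, F23A7.4. The lowest fold changes were those of F23A7.4, rncs-1, Y73B3A.13, H11L12.1 and plp-2. The noncoding RNA rncs-1, known as an inhibitor of Dicer, had 1.16 and 1.11 CPM in the “red-head” pair, 10.8 and 2.01 CPM in offspring and 3.48 and 3.52 CPM in control libraries. The Pur-alpha-like gene plp-2 had 15.6 and 31.1 CPM in the “red-head” pair, 39.7 and 38.2 CPM in offspring and 36.9 and 30.7 CPM in control libraries, with “red-head” replicate 1 the lowest, and H11L12.1 had 22.9 and 50, 79.5 and 55.7, and 58.8 and 39.9 CPM.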

How the data were processed

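Distal gonad arms were profiled by rRNA-depleted RNA-seq in 3 groups of 2 libraries, grouped by the sample labels. The authors used TopHat2 for alignment, with the WS220 gene models, and their deposited values are HTSeq counts per gene, whole numbers that are not normalized. Rows naming no gene (10.7% to 15.2% of reads without a feature, 1.59% to 2.15% ambiguous) were left out of library sizes and tests. The authors' table of their DESeq2 comparisons (mean level, log2 fold change and adjusted p per gene) was not used.

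Chromosome, biotype, gene order and exonic length came from Ensembl release 115 (WBcel235), to which 44933 of 45461 names matched. Its gene start positions set the gene order and are not printed. Of the unmatched names, 113 reached 60 counts and their chromosome is unknown. Counts were fitted on all 6 libraries with edgeR 4.0.16 in R 4.3.3 (filterByExpr, TMM, glmQLFit, glmQLFTest, Benjamini-Hochberg adjustment over 8117 genes, threshold 0.05). Of the 724 X-linked genes, 7 did not pass the filter. Standard errors were the fold change divided by the square root of its F statistic. RPKM used the longest annotated transcript. DESeq2 1.42.0 was an alternative, tested over genes with an adjusted p. X shifts were compared by exact permutation over libraries. The edgeR script was tested on simulated data. With 2721055 to 11310273 counts per library, a count of 60 over 6 libraries is near the limit of detection. No 2 libraries were alike within sampling noise, since their counts differed by a chi-square of at least 7.14 per gene.

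Genes named in the text were the 25 protein-coding and 5 other genes with the highest control level, the 3 on either side of the count minimum, up to 5 per contrast and direction with the largest fold change at an unadjusted p under 0.05 and no overlap, the 5 with the widest range, and members of the lists, with exceptions marked as chosen after their values were seen. The rule, the genes and the lists were chosen with earlier results of these data known. The thinning, the level bins, the medians without 1 library, the choice of genes on 5 libraries, the shift of each autosome and the exclusion of Y73B3 names were added after seeing the data. No sequences are printed, as no genome sequence was used here.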

Additional observations from a re-analysis of the deposited data

How the results depend on the processing

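The counts of calls among the X-linked genes, 0 in all 3 contrasts, stayed 0 with RLE scaling, library size only, at least 10 counts in every library, the 4 libraries compared and an adjusted p of 0.1. With a replicate block they were 0 in each contrast as well. The labels do not pair the replicates, and the correlations of replicate 1 minus replicate 2 between groups were 0.07, -0.09 and 0.38 over tested genes. DESeq2 called 6 genes between “red-head” and control and 7 between “red-head” and offspring germlines. Without a filter on low counts 26, 6 and 30 X-linked genes were called, and the cause was not tested. The order is “red-head” against control, offspring against control and “red-head” against offspring. The share of all tested genes called is not given for this fit or for the fits without 1 library. X-linked calls of these fits thus cannot be set against a background. Leaving out 1 library at a time gave 0 to 5, 0 to 1 and 0 to 11 calls, with 5 and 11 without “red-head” replicate 2. Of 294 alternative values of the 24 fold changes named for a contrast, 29 passed the threshold. Their direction was fixed by the choice of genes without overlap and says nothing about stability.

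The X shift between groups did not turn under the other scalings, pseudocounts, count minimums and choices of genes. Leaving out 1 library at a time gave -0.38 to 0.40 for “red-head” against control, -0.37 to -0.14 for offspring against control and -0.12 to 0.65 for “red-head” against offspring, so that both “red-head” contrasts turned without “red-head” replicate 1, and the one against control also, at -0.09, without control replicate 1. Within a name tag “red-head” against offspring was 0.00. The median control level of the X minus that of autosomes was -3.13 ± 0.18 (SD, n = 2), -2.83 with CPM in place of RPKM, -3.35 with a pseudocount of 0.25 and -0.30 over all annotated genes without a count rule, where most genes of all chromosomes are near 0. Leaving out either control gave -3.26 to -3.0. The share of control counts on the 724 X-linked genes was 1.25%, and on the protein-coding ones it was 1.14%. Leaving out either control gave 1.17% to 1.33% for the 724 genes. The share of X-linked protein-coding genes that met the rule was 26.2%, 32.2% at 30 counts, 20.7% at 120 counts and 2.0% above 15 RPKM in both controls. With 2 libraries per group, small changes of single genes cannot be found, and genes near 60 counts rest on few counts per library.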
